A study of Mus musculus with 4 samples.

Results

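C-type lectin receptors of myeloid cells were examined in leukocytes sorted from EO771 mammary tumors. The group held 10 genes of the 32285 in the count table, chosen by name as Clec4d, Clec4e, Clec4n, Clec5a, Clec7a, Clec9a, Clec10a, Clec12a, Mgl2 and Cd209a. Of these, 9 were measured, and Clec7a was not analysed here. EO771 is a mouse mammary cancer cell line of the C57BL/6 background, and the tumors were grown in the mammary fat pad of female mice and taken at 1.5 cm3. Viable CD45+ cells came from 2 Csf1rfl/fl tumors and 2 Lyve1CreCsf1rfl/fl tumors. Both genotypes carried the floxed alleles of Csf1r, the receptor for CSF1. Only the second carried Cre, which is driven by Lyve1 and so is limited to cells that use that gene and their progeny. Ages of the tumor-bearing mice are not given in the sources used here. Each of 2 Chromium runs held a tumor of either genotype, separated afterwards by their antibody hashtags, and tumors are named here by genotype and run.

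C-type lectin receptors bind carbohydrates, lipids or proteins of microbes and of damaged cells. Clec4d (MCL), Clec4e (Mincle) and Clec4n signal through the Fc receptor gamma chain, encoded by Fcer1g, to the kinase Syk and the adaptor Card9, and Clec5a pairs with the adaptors encoded by Tyrobp and Hcst. Clec9a binds actin exposed by dead cells and is known from type 1 dendritic cells. Clec12a carries an inhibitory motif, whereas Clec10a, Mgl2 and Cd209a are endocytic receptors for glycans.

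Of the 28429 cells with corrected counts from the authors, called kept cells below, 24079, or 84.7%, were gated into a cell type. The gates used 12 lists of lineage markers that held none of the receptors. The paper also describes removing lymphocyte clusters that came almost only from the second Lyve1CreCsf1rfl/fl tumor. No such removal was made here. The gates held 5531 neutrophils, 3518 monocytes, 1810 macrophages, 1537 type 2 dendritic cells, 594 type 1 dendritic cells, 1901 mature dendritic cells and 671 plasmacytoid dendritic cells. T cells, NK cells and tumor and stromal cells numbered 5769, 2134 and 238. In each named gate at least 2 genes of its own list, and in each myeloid gate at least 4, were among the 10 genes with the largest fold against all other kept cells. Among the other gates' markers, only Plet1 of the type 2 dendritic cell list appeared there, in type 1 dendritic cells. Names below stand for the gates. A gate of 368 B lineage cells held under 50 cells in 2 tumors and is left out. Of these cells, 275 were in Lyve1CreCsf1rfl/fl of run 2. They were 5.76% of its kept cells, against 0.237% to 0.609% in the other tumors. The 4 tumors had medians of 3721 to 4657 UMIs in kept cells. The deepest myeloid gate was that of type 1 dendritic cells, with a median of 9619 UMIs, and the shallowest was that of neutrophils, with 2099. Kept cells of the 2 runs shared 60 barcode sequences. Hashtags were least distinct in Csf1rfl/fl of run 1, where in 6.82% of cells the higher hashtag was less than 3 times the lower, against 0.218% to 1.41% in the others. Scrublet called 21.3% and 12.8% of the kept cells of runs 1 and 2 doublets. Csf1r itself was read in macrophages of every tumor, at 1.52 and 2.13 UMIs per 10000 in Csf1rfl/fl and 1.35 and 1.44 in Lyve1CreCsf1rfl/fl. Reads of the 3′ end need not cover the deleted part of Csf1r, so this does not check the deletion. Lyve1 had 3 UMIs in all macrophages.

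The genes lay in few places of the genome (mm10, GENCODE vM21). On chromosome 6, Clec4n (123229843 to 123247021, plus strand), Clec4d (123262111 to 123275265, plus strand) and Clec4e (123281789 to 123289870, minus strand) were neighbours, and the starts of Clec4d and Clec4e were 27759 bases apart. Clec12a (129342691 to 129365303, plus strand) and Clec9a (129408862 to 129424763, plus strand) lay on the same chromosome, as did Clec5a (40574894 to 40585821, minus strand). Mgl2 (70130329 to 70137550, plus strand) and Clec10a (70156197 to 70170834, plus strand) were neighbours on chromosome 11. Cd209a (3743397 to 3748984, minus strand) lay on chromosome 8. Mgl2 and Clec10a are close paralogs, and so are Cd209a and the other Cd209 genes, so reads from shared stretches could be split or lost between them.

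RefSeq promoters (GRCm38.p6) matched 8 of the 10 genes. The 250 bases before the start are shown for Clec4d and Clec4e, which were highest in neutrophils, for Clec9a, highest in type 1 dendritic cells, and for Mgl2 and Cd209a, highest in type 2 dendritic cells. Each is written along its gene's strand. These are chr6:123261857-123262106, chr6:123289872-123290121, chr6:129408612-129408861, chr11:70130107-70130356 and chr8:3748985-3749234. Capitals mark matches on either strand to a PU.1 core (GAGGAA) or a C/EBP motif (TTGCNNAA).
Clec4d: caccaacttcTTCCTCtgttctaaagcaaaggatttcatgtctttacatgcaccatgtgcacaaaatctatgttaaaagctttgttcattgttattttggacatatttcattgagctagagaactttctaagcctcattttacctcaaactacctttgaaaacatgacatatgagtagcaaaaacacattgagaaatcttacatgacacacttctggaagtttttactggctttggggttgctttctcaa
Clec4e: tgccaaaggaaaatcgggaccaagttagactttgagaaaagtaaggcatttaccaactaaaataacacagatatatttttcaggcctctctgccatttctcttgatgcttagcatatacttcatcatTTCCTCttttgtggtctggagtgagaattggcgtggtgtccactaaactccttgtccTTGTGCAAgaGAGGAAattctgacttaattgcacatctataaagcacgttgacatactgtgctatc
Clec9a: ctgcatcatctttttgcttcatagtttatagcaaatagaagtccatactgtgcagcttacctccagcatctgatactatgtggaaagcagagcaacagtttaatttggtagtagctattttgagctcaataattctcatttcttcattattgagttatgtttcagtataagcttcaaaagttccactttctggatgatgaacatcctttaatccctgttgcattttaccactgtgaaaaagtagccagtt
Mgl2: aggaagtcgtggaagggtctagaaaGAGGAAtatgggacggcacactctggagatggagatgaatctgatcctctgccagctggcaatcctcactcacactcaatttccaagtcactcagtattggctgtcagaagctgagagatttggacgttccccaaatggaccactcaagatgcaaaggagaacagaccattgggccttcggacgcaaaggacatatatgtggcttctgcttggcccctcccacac
Cd209a: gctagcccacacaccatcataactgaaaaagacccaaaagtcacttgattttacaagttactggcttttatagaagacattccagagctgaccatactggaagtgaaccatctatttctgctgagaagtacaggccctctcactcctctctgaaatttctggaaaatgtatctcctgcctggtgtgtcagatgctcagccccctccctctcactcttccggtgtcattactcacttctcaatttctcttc
Clec4e held 2 PU.1 cores and 1 C/EBP match, Clec4d and Mgl2 held 1 PU.1 core each, and Clec9a and Cd209a held no match to these letters. Of 32851 promoters, 23.2% held the PU.1 core and 9.56% the C/EBP motif in the same 250 bases. An AP-1 motif (TGANTCA, in 6.75% of promoters) had no match in these 5 windows. Among the promoters not shown, that of Clec12a held 2 PU.1 cores, 1 C/EBP match and 1 AP-1 match, and that of Clec5a, also highest in neutrophils, held 2 PU.1 cores. Matches of letters are a description and not binding sites.

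A level below is the share of a gate's UMIs in a tumor, per 10000, with the mean and SD over the 4 tumors. They are not divided by length, and they compare gates and not genes.

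Clec4d and Clec4e, the Mincle pair, were highest in neutrophils. Clec4d had 10.4 and 16.8 UMIs per 10000 in Csf1rfl/fl neutrophils (run 1, then run 2), and Lyve1CreCsf1rfl/fl neutrophils had 15.7 and 16.4 (mean 14.8 ± 2.98, SD, n = 4). Clec4e had 24.7, 31.1, 30.7 and 23.5 in the same order (mean 27.5 ± 3.92, SD, n = 4). Every tumor's neutrophils lay above every tumor's cells of the other gates for both genes. Monocytes came next for Clec4e at 4.16 ± 0.328 (SD, n = 4), and macrophages came next for Clec4d at 2.61 ± 0.749 (SD, n = 4). Clec4d in macrophages also lay above monocytes (1.65 ± 0.266, SD, n = 4) in every tumor, while the ranges of Clec4e in monocytes and macrophages overlapped. All dendritic cell gates averaged under 2 for Clec4e and under 1 for Clec4d.

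Nearly all neutrophils held a UMI of these receptors. Clec4d was detected in 91.5% of neutrophils and Clec4e in 90.6%, and 83.7% held both. Neither was detected in 1.70%. In the single tumors, both were found in 84.0% and 81.7% of neutrophils of Csf1rfl/fl and 88.6% and 75.8% of Lyve1CreCsf1rfl/fl. When each cell was thinned to 1500 UMIs, which left out 1232 neutrophils below that depth, 83.5% held Clec4d and 86.9% Clec4e. At the same depth monocytes held them in 18.7% and 36.8% of cells and macrophages in 26.0% and 26.0%. T cells, a lineage not known for these receptors, held them in 3.05% and 5.13%, with a median of 4052 UMIs before thinning and 6.93% and 11.1% unthinned. Shares in type 2 dendritic cells, 3.75% and 5.35%, lay near those of T cells. Intervals from counting are not given, since tumors and not cells are the replicates.

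UMIs of neutrophil marker genes were found at a low level in the other gates. S100a8, which encodes a calgranulin and was a marker of the neutrophil gate, stood in T cells at 0.959% of its neutrophil level in the same tumor, and Clec4d and Clec4e stood there at 2.18% and 2.26%. In type 2 dendritic cells the values were 1.62% for S100a8, 2.56% for Clec4d and 2.19% for Clec4e. The values lay further apart in monocytes and macrophages. There S100a8 was at 3.02% and 4.42% of the neutrophil level, while Clec4d was at 11.7% and 18.1% and Clec4e at 15.3% and 11.5%. All 10 neutrophil markers were found in every gate. Their summed level ran from 1386 to 1758 UMIs per 10000 in neutrophils of the 4 tumors, from 29.9 to 61.5 in monocytes, from 40.1 to 121 in macrophages, from 15.5 to 43.6 in type 2 dendritic cells and from 3.94 to 52.1 in type 1 dendritic cells. Lyve1CreCsf1rfl/fl of run 2 had the least of it in several gates, and also the least Clec4d there. In its plasmacytoid dendritic cells the sum was 4.59 against 64.2 to 123 in the other tumors and Clec4d was 0.146 against 0.652 to 1.32. In its type 1 dendritic cells the sum was 3.94 against 11.3 to 52.1 and Clec4d was 0.278 against 0.294 to 0.636. The part of neutrophil RNA in the low levels of the dendritic cell gates was not tested.

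**Figure D1:**
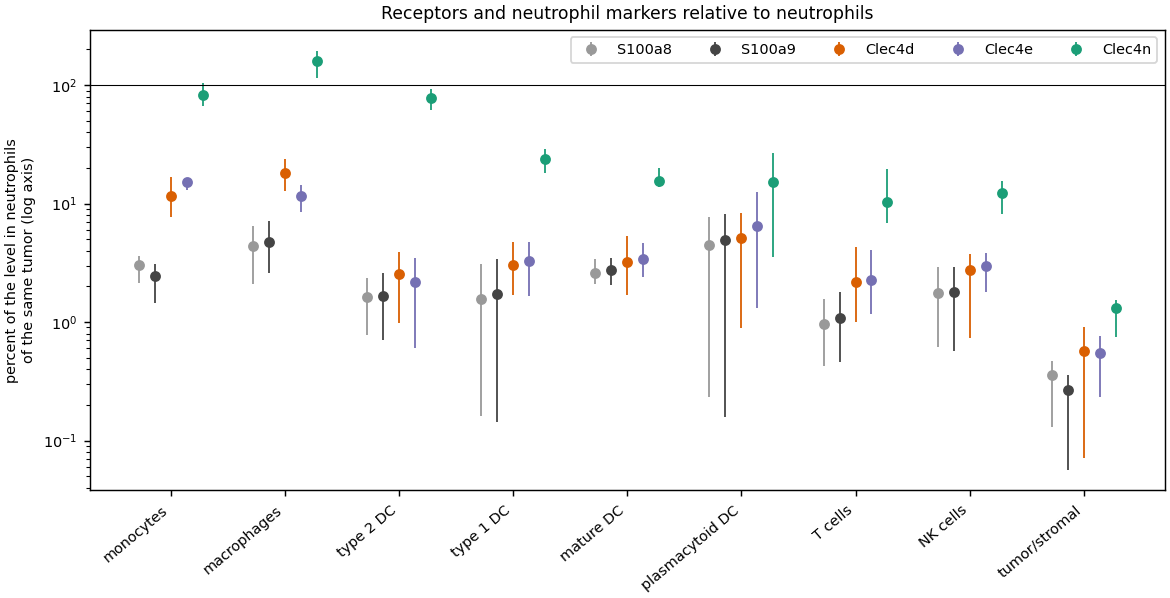
Level of 3 receptors and 2 neutrophil markers in each gate, as a percent of the level in neutrophils of the same tumor (log axis). Points are means and bars run from the lowest to the highest of the 4 tumors. In type 2 dendritic cells Clec4d is at 2.56% and S100a8 at 1.62%, while in macrophages they are at 18.1% and 4.42%.

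Clec4n, which recognises fungal mannans and shares the signalling chain of Clec4d and Clec4e, had another order in UMIs per 10000. Macrophages were highest, at 4.12 and 3.92 UMIs per 10000 in Csf1rfl/fl and 6.69 and 5.78 in Lyve1CreCsf1rfl/fl (mean 5.13 ± 1.33, SD, n = 4). Neutrophils (3.20 ± 0.285), monocytes (2.65 ± 0.438) and type 2 dendritic cells (2.49 ± 0.535, all SD, n = 4) followed, with ranges over the tumors that overlapped. Within tumors Clec4n was higher in neutrophils than in monocytes in 3 of 4, a difference that passed by TMM and not with total UMIs alone, as given below. By TMM the log2 fold was 1.16 for neutrophils against monocytes and -0.82 for monocytes against macrophages. The place of macrophages above neutrophils thus depended on the scale, and these 2 gates were not tested against each other. Type 1 and mature dendritic cells lay below these in every tumor, at 0.755 ± 0.127 and 0.494 ± 0.0579 (SD, n = 4). After thinning, 42.1% of macrophages held a UMI of Clec4n, 23.9% of type 2 dendritic cells and 2.74% of T cells. Among Clec4n, Clec4d and Clec4e, Clec4n was thus the one that type 2 dendritic cells held well above T cells.

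Clec5a was highest in neutrophils and monocytes. Its levels were 0.729, 0.654, 0.643 and 0.611 UMIs per 10000 in neutrophils of the 4 tumors, in the order Csf1rfl/fl run 1 and 2 and Lyve1CreCsf1rfl/fl run 1 and 2. In monocytes they were 0.615, 0.641, 0.640 and 0.595, so the ranges of the 2 gates overlapped, although neutrophils were the higher in each of the 4 tumors. This difference too passed by TMM and not with total UMIs alone. Macrophages had 0.443 ± 0.0846 (SD, n = 4), below the monocytes of every tumor. Dendritic cell gates had 0.125 or less on average.

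Clec9a marked type 1 dendritic cells, although it took no part in the gate. These cells had 0.617 and 0.812 UMIs per 10000 in Csf1rfl/fl and 0.823 and 0.847 in Lyve1CreCsf1rfl/fl (mean 0.774 ± 0.106, SD, n = 4). Plasmacytoid dendritic cells were next at 0.271 ± 0.0535 and type 2 dendritic cells followed at 0.0487 ± 0.0146 (SD, n = 4), with no overlap between these 3 gates. A UMI of Clec9a was found in 47.5% of type 1 dendritic cells, or 9.77% after thinning, and in 12.2% of plasmacytoid dendritic cells, or 4.18% after thinning. Neutrophils, monocytes, macrophages, T cells and NK cells held 4, 10, 7, 5 and 4 UMIs of it in all.

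Clec12a, the inhibitory receptor, was spread over several gates. Plasmacytoid dendritic cells (1.45 ± 0.243), macrophages (1.25 ± 0.297), monocytes (0.897 ± 0.159) and type 1 dendritic cells (0.846 ± 0.0916, all SD, n = 4) formed an upper group in which neighbours overlapped. Neutrophils, at 0.410, 0.550, 0.348 and 0.543 UMIs per 10000, lay below type 1 dendritic cells and above type 2 dendritic cells in every tumor. This place is on the scale of total UMIs, and by TMM neutrophils did not differ from monocytes, as given below. Type 2 and mature dendritic cells were lowest of the myeloid gates at 0.276 ± 0.0322 and 0.238 ± 0.0922 (SD, n = 4). T cells had 0.0635 ± 0.0507 (SD, n = 4). Clec12a therefore separated type 1 from type 2 dendritic cells in the same direction as Clec9a, which also lies on chromosome 6.

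The galactose receptors Clec10a and Mgl2, though neighbours and paralogs, differed in where they were highest. Clec10a stood at 3.12 and 2.68 UMIs per 10000 in plasmacytoid dendritic cells of Csf1rfl/fl and 4.14 and 3.45 in those of Lyve1CreCsf1rfl/fl (mean 3.35 ± 0.616, SD, n = 4). Type 2 dendritic cells had 0.508, 1.48, 0.842 and 0.836, all below the plasmacytoid cells. Macrophages, type 1 dendritic cells and monocytes had 0.185, 0.121 and 0.114 on average, and neighbours in this order overlapped. Clec10a was found in 71.7% of plasmacytoid dendritic cells and 23.6% of type 2 dendritic cells, or 38.8% and 9.89% after thinning, against 0.506% of T cells.

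Mgl2 was highest in type 2 dendritic cells, at 0.577, 1.42, 0.901 and 0.669 UMIs per 10000 in the same order of tumors, against 0.347 ± 0.114 (SD, n = 4) in plasmacytoid dendritic cells. The lowest type 2 value lay above the highest plasmacytoid value, which was 0.484. Summed over tumors, plasmacytoid dendritic cells held 1282 UMIs of Clec10a and 139 of Mgl2, a ratio of 9.22, whereas type 2 dendritic cells held 1009 and 998, a ratio of 1.01. The 2 genes thus did not keep 1 ratio across these gates. A UMI of Mgl2 was found in 13.8% of type 2 dendritic cells, and the 3 cells with most held 16.5% of its UMIs there. These 3 cells were in the Csf1rfl/fl tumor of run 2, which had the highest level. By tumor, the 3 cells with most held 35.2% and 33.9% in Csf1rfl/fl and 16.8% and 25.0% in Lyve1CreCsf1rfl/fl.

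Cd209a, a mouse relative of human DC-SIGN, was highest in type 2 dendritic cells. The levels there were 0.577 and 2.31 UMIs per 10000 in Csf1rfl/fl and 1.75 and 2.37 in Lyve1CreCsf1rfl/fl (mean 1.75 ± 0.831, SD, n = 4). The Csf1rfl/fl tumor of run 1 was low for Mgl2 and Clec10a too. Plasmacytoid dendritic cells followed at 0.361 ± 0.199 (SD, n = 4), without overlap, and all other gates averaged 0.0738 or less. Of type 2 dendritic cells, 26.9% held Cd209a, or 14.6% after thinning, against 0.139% of T cells, or 0.0504% after thinning.

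Within type 2 dendritic cells the 3 glycan receptors were found in part of the cells. Cd209a was present in 50.3% of cells with Clec10a and in 19.7% of cells without it. It was present in 41.0% of cells with Mgl2 and 24.7% of cells without it, and Mgl2 was present in 30.1% of cells with Clec10a and 8.77% of those without it. In the single tumors Cd209a was found in 22.2% and 48.3% of cells with Mgl2 in Csf1rfl/fl and 45.6% and 34.4% in Lyve1CreCsf1rfl/fl, against 11.6%, 31.3%, 25.2% and 32.5% of cells without it. The last of these tumors showed almost no difference. With Clec10a, Cd209a was found in 22.1%, 60.9%, 51.1% and 54.7% of cells in the same order, against 10.5%, 22.8%, 21.7% and 26.3% of cells without it, so it was the higher in each tumor. Cells that hold a UMI of 1 gene also tend to be deeper, and these shares are not adjusted for depth.

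**Figure D2:**
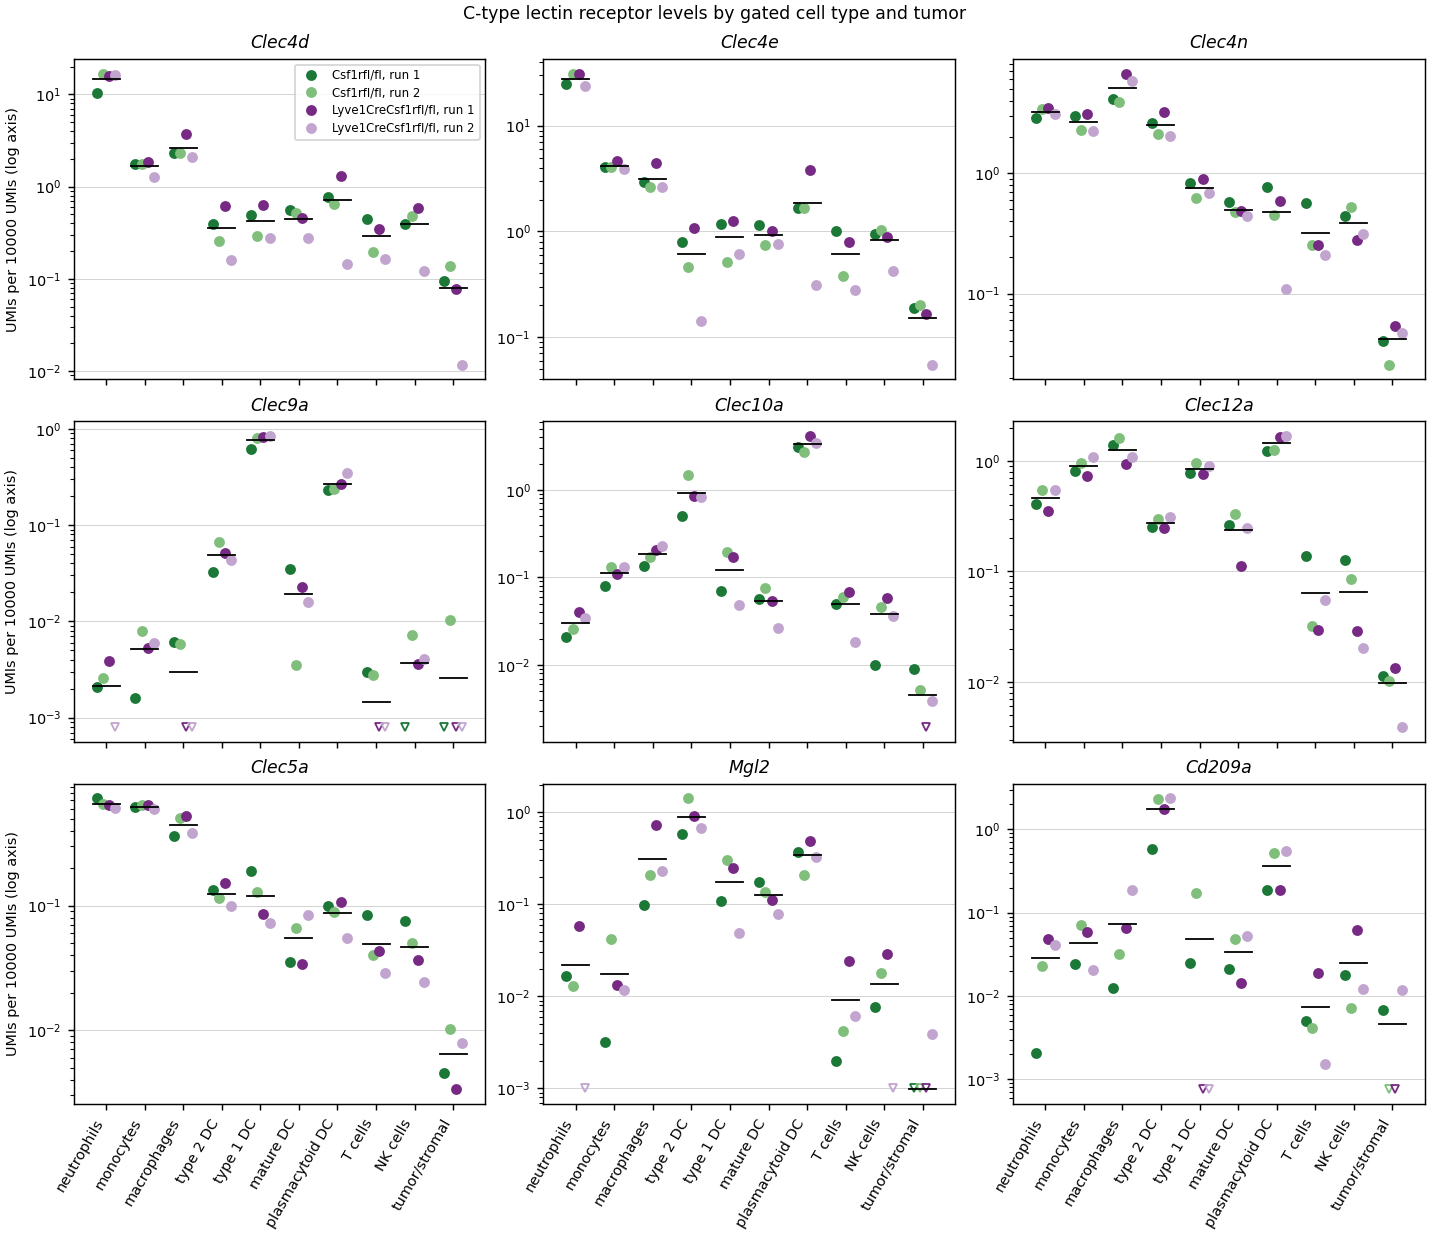
Level of each measured receptor in 10 gates, in UMIs per 10000 UMIs (log axis). Each point is 1 tumor, black lines are means over the 4 tumors, and open triangles at the foot mark tumors with 0 UMIs. Clec4d and Clec4e peak in neutrophils at 14.8 and 27.5, Clec4n in macrophages, Clec9a in type 1 dendritic cells, Clec10a in plasmacytoid and Cd209a and Mgl2 in type 2 dendritic cells.

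Over the 40 sums of 10 gates and 4 tumors, Clec4d and Clec4e followed each other with a Pearson r of 0.981 in log2 CPM. Among 11132 genes the next most like Clec4d were Cd14 (r = 0.977) and Csf3r (r = 0.971), and Cd14 (r = 0.970) and Fpr1 (r = 0.967) for Clec4e. Lst1 (r = 0.961), Sirpb1c (r = 0.952) and Sat1 (r = 0.946) were most like Clec4n. Pilra, Igsf6 and Gm5150 were most like Clec5a (r = 0.973, 0.970 and 0.966), and Mpeg1, Unc93b1 and Rbm47 most like Clec12a (r = 0.967, 0.938 and 0.927). Gm43914, Mycl and Ffar4 were most like Clec9a (r = 0.940, 0.924 and 0.918). Cdh1, which encodes E-cadherin, came first for Clec10a (r = 0.926), ahead of Lifr (r = 0.896) and Arhgap27os2 (r = 0.893), and second for Cd209a (r = 0.841), between Cd209e (r = 0.847) and Ngfr (r = 0.835). Ctnnd2, Kdr and Prcp were most like Mgl2 (r = 0.855, 0.840 and 0.839). These sums share tumors, runs and depth, so the values are descriptions.

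Neighbouring gates were compared with edgeR's quasi-likelihood test on the summed UMIs, with the tumor as a block and Benjamini-Hochberg adjustment over the 10939 genes tested. All 9 receptors passed the filter on low counts, and folds below are log2 with their SE. TMM factors scale each sum to the bulk of its genes. They moved the comparison with neutrophils most.

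Between neutrophils and monocytes, 63.9% of all genes tested differed. Of the 9 receptors, 4 were higher in neutrophils and 1 was lower. Clec4d rose by 4.07 ± 0.24 (adjusted p = 3.61e-15) and Clec4e by 3.59 ± 0.28 (adjusted p = 2.11e-12). With total UMIs alone as the scale, a choice made after seeing the data, the median of all genes moved by -0.84 and the share of calls that were higher in neutrophils from 48.8% to 18.5%. The rises of Clec4d and Clec4e were then 3.20 and 2.72 and still passed. Those of Clec4n (1.16 ± 0.17, adjusted p = 1.05e-06) and Clec5a (0.94 ± 0.12, adjusted p = 1.07e-07) became 0.29 (adjusted p = 0.0921) and 0.08 (adjusted p = 0.549). Clec10a fell by 1.04 ± 0.35 (adjusted p = 0.0115), and without the Csf1rfl/fl tumor of run 1 its adjusted p was 0.0537. Without doublets the values of Clec4d, Clec4e and Clec10a were 4.81, 4.29 and -1.76, and with total UMIs alone Clec10a was at -1.90. Clec12a did not differ by TMM (-0.11 ± 0.14, adjusted p = 0.506) and was lower in neutrophils by total UMIs (-0.97, adjusted p = 3.61e-07).

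Between monocytes and macrophages, 35.1% of genes differed, and 4 of the 9 receptors. Of the calls, 51.9% were higher in monocytes, or 32.8% with total UMIs alone. Clec5a was higher in monocytes by 0.67 ± 0.14 (adjusted p = 0.000274). Clec4n fell by 0.82 ± 0.17 (adjusted p = 0.000437), Mgl2 fell by 3.53 ± 0.53 (adjusted p = 3.92e-06) and Clec12a fell by 0.40 ± 0.13 (adjusted p = 0.0198), so these were lower in monocytes. The call of Clec12a was lost without the block (adjusted p = 0.121) and without either Csf1rfl/fl tumor (adjusted p = 0.144 and 0.154). Mgl2 was at -4.74 without the Csf1rfl/fl tumor of run 2, -2.77 without the Lyve1CreCsf1rfl/fl tumor of run 1 and -5.26 with the stricter gate. Clec4d (-0.49 ± 0.22, adjusted p = 0.0894) and Clec4e (0.58 ± 0.26, adjusted p = 0.0880) had values of opposite sign and did not pass. With total UMIs alone Clec4d passed (-0.62, adjusted p = 0.0214) and Clec4e did not (0.46, adjusted p = 0.158). Of 13 settings with the main fit, Clec4d passed in 5 and Clec4e in 3. In both the stricter gate and the cells without doublets, 7 of the 9 receptors passed. The shares of all genes called in those settings are not given here, so this count is not read as a result about the receptors.

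Type 2 dendritic cells and monocytes differed in 8 of the 9 receptors, against 42.6% of all genes. The glycan receptors and Clec9a were higher in the dendritic cells, Mgl2 by 5.52 ± 0.44 (adjusted p = 1.26e-11), Cd209a by 5.16 ± 0.32 (adjusted p = 5.28e-14), Clec9a by 3.13 ± 0.42 (adjusted p = 3.86e-07) and Clec10a by 2.96 ± 0.21 (adjusted p = 9.46e-13). Clec4e fell by 2.89 ± 0.29, Clec5a fell by 2.35 ± 0.16, Clec4d fell by 2.28 ± 0.26 and Clec12a fell by 1.73 ± 0.16, with adjusted p of 2.32e-09, 8.43e-13, 1.50e-08 and 1.97e-10. Without doublets Clec4e and Clec4d fell further, to -4.17 and -3.78. The rise of Mgl2 was 6.30 without the Csf1rfl/fl tumor of run 2 and 7.32 with the stricter gate, which gave 6.11 for Cd209a. Clec4n was the exception, at -0.13 ± 0.17 (adjusted p = 0.578). Its values under the alternatives ran from -0.21 to 0.13.

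Type 1 and type 2 dendritic cells differed in 6 of the 9 receptors, against 30.6% of all genes. Clec9a was higher in type 1 cells by 3.99 ± 0.21 (adjusted p = 7.04e-15) and Clec12a by 1.68 ± 0.17 (adjusted p = 5.20e-09). Cd209a fell by 4.52 ± 0.37 (adjusted p = 6.70e-11), Clec10a fell by 2.73 ± 0.25 (adjusted p = 7.90e-10), Mgl2 fell by 2.18 ± 0.37 (adjusted p = 2.68e-05) and Clec4n fell by 1.65 ± 0.20 (adjusted p = 1.53e-07). Clec4d, Clec4e and Clec5a did not pass. All 6 calls passed under every alternative run. Of the 48 UMIs of Cd209a in type 1 cells, 43 were in the Csf1rfl/fl tumor of run 2 and none in either Lyve1CreCsf1rfl/fl tumor, and without the Csf1rfl/fl tumor of run 2 the fold was -6.56. Clec4n was at -2.46 with the stricter gate.

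Mature dendritic cells, marked by the migration receptor gene Ccr7, had less of most receptors than type 2 cells. Of the 9, 6 were lower and 1 was higher, against 53.7% of all genes that differed. Of those calls, 50.1% were higher in mature cells, or 35.4% with total UMIs alone. Cd209a fell by 5.51 ± 0.37 (adjusted p = 1.53e-13), Clec10a fell by 3.82 ± 0.26 (adjusted p = 1.70e-13), Mgl2 fell by 2.61 ± 0.36 (adjusted p = 3.14e-07) and Clec4n fell by 2.12 ± 0.20 (adjusted p = 1.68e-10). Clec9a (-1.12 ± 0.37, adjusted p = 0.0114) and Clec5a (-1.08 ± 0.26, adjusted p = 0.000692) were lower as well, and the fall of Clec9a was -0.53 (adjusted p = 0.283) without the Csf1rfl/fl tumor of run 2. Without the Lyve1CreCsf1rfl/fl tumor of run 1 the call of Clec9a was lost too (-1.17, adjusted p = 0.0540). The fall of Clec9a was -1.73 without the Csf1rfl/fl tumor of run 1. Without doublets Clec5a was at -2.42, Clec4n at -3.08, Clec10a at -4.45 and Cd209a at -6.66, and with the stricter gate Cd209a was at -6.17. Clec4e was higher by 0.83 ± 0.30 (adjusted p = 0.0203), but the call was lost in 4 of the 12 alternatives. It was at 0.18 (adjusted p = 0.622) without doublets, 0.73 (adjusted p = 0.207) without the block, 0.82 (adjusted p = 0.0683) without the Csf1rfl/fl tumor of run 2 and 0.63 (adjusted p = 0.0626) with total UMIs alone, and the highest value was 1.35 with the stricter gate. In Lyve1CreCsf1rfl/fl the tumors differed, with 1.02 UMIs per 10000 in mature and 1.07 in type 2 cells of run 1 and 0.760 and 0.142 in run 2. Its level of 0.916 in mature cells was close to the 0.823 of NK cells.

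**Figure D3:**
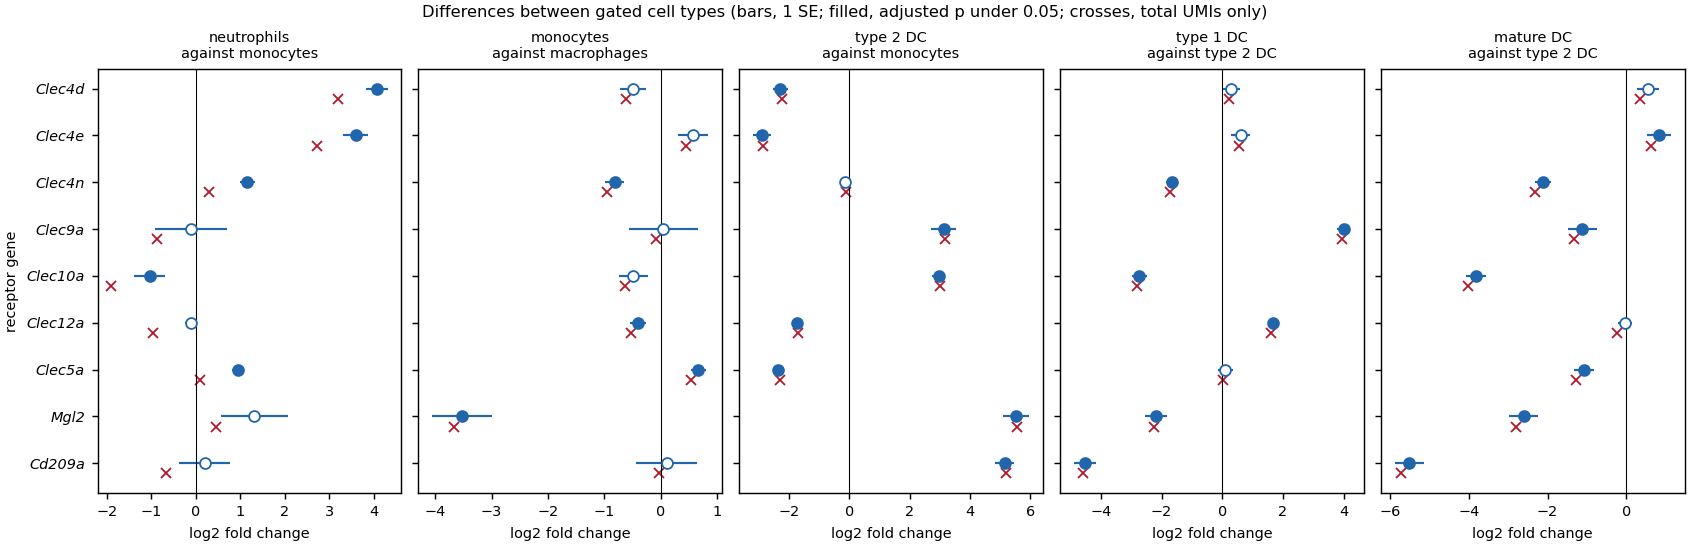
Log2 fold change of each receptor in the 5 comparisons of gates. Blue circles are TMM-scaled edgeR values with bars of 1 SE, filled where the adjusted p is under 0.05, and red crosses are the values with total UMIs alone. The crosses lie below the circles in neutrophils against monocytes, where Clec4d is at 4.07 and 3.20, and close to them in the dendritic cell comparisons.

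The signalling genes of these receptors were followed as a list of 16, all of which were tested. By TMM 87.5%, 43.8%, 68.8%, 68.8% and 75.0% of it were called in the 5 comparisons in the order above, against 63.9%, 35.1%, 42.6%, 30.6% and 53.7% of all genes. Its direction in neutrophils against monocytes turned with the scale. By TMM 11 were higher and 3 lower, with a median of 0.59 against -0.09 for all genes, whereas with total UMIs alone 3 were higher and 9 lower, with a median of -0.27 against -0.93. Of all 10939 genes, 1597 were higher and 7053 lower with total UMIs alone. The share of the signalling list that was called did not exceed that of all genes there. On both scales Hcst (2.39 ± 0.13 by TMM, adjusted p = 7.8e-16), Syk (2.27 ± 0.12, adjusted p = 1.2e-16) and Inpp5d, a phosphatase of the pathway (1.19 ± 0.10, adjusted p = 1.2e-11), rose and Plcg2 (-0.93 ± 0.13, adjusted p = 3.6e-07) fell. Fcer1g, the chain of Clec4d, Clec4e and Clec4n, stood at 31.8 ± 8.81 UMIs per 10000 in neutrophils and 43.4 ± 8.73 in monocytes (SD, n = 4). In type 2 dendritic cells against monocytes, 10 were lower and 1 higher. Fcer1g fell by 0.93 ± 0.09 (adjusted p = 6.8e-10) and Syk fell by 0.79 ± 0.12 (adjusted p = 3.6e-06), and Malt1 was higher (0.59 ± 0.15, adjusted p = 0.0019). In monocytes against macrophages 7 were higher and 9 did not pass, with Card9 first (1.18 ± 0.18, adjusted p = 6.6e-06). With total UMIs alone 6 were higher and 3 lower.

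Among dendritic cells the same list was lower in type 1 and in mature cells. Of the 16, 10 were lower and 1 higher in type 1 against type 2 cells (median -0.37 against -0.00024 for all genes), with Malt1 (-1.87 ± 0.17) and Card9 (-1.35 ± 0.23) leading. Mature cells had 10 lower and 2 higher (median -0.88 against 0.0035 for all genes). Plcg2 (-1.75 ± 0.15), the kinase gene Lyn (-1.72 ± 0.10) and Fcer1g (-1.65 ± 0.09) fell most there, and Malt1 and Vav3 were higher.

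Of 30 other C-type lectin genes, 18 passed the filter. In neutrophils against monocytes 4 were higher and 6 lower, or 3 and 10 with total UMIs alone. The 55.6% called lay below the 63.9% of all genes. The rises were led by Olr1, the receptor LOX-1 for oxidised lipoprotein (5.08 ± 0.24), and Clec1a (4.33 ± 0.38), while Cd302 fell by 2.06 ± 0.17. Macrophages exceeded monocytes for Mrc1, the mannose receptor CD206 (2.07 ± 0.819 against 0.297 ± 0.188 UMIs per 10000, SD, n = 4), and for Clec4b1 (0.767 ± 0.320 against 0.118 ± 0.0213, SD, n = 4), and the folds were -2.69 ± 0.21 and -2.57 ± 0.21 for monocytes against macrophages. In that comparison 4 of the 18 were higher and 6 lower, 55.6% against 35.1% of all genes. Of the 18, 8 were higher and 7 lower in type 2 dendritic cells against monocytes, 83.3% against 42.6% of all genes. The Cd209a paralogs Cd209c, Cd209d and Cd209e led the rise, with 70, 513 and 67 UMIs in type 2 dendritic cells and 3, 44 and 8 in monocytes. The level of Cd209d was higher in plasmacytoid than in type 2 dendritic cells of each tumor, at 0.425, 0.800, 1.75 and 1.68 UMIs per 10000 against 0.243, 0.602, 0.487 and 0.669, although the ranges overlapped. In type 1 against type 2 cells, where 72.2% were called against 30.6% of all genes, 11 were lower and 2 higher, Clec1b (3.38 ± 0.43) and Ly75, or DEC-205 (1.35 ± 0.20). In mature against type 2 cells 11 were lower and 4 higher, 83.3% against 53.7% of all genes. Ly75 rose most, with 1.32 ± 0.133 UMIs per 10000 in mature cells and 0.107 ± 0.0287 in type 2 cells (SD, n = 4), and a log2 fold of 3.87 ± 0.15 (adjusted p = 5.7e-19).

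A list of 14 genes induced downstream of Syk and Card9, which other receptors induce too, was tested in full. In neutrophils against monocytes 12 were higher and 1 lower, with a median of 3.90 against -0.09, and 10 and 1 with total UMIs alone. By TMM 92.9% were called, against 63.9% of all genes. With total UMIs alone 1597 of all 10939 genes were higher and 7053 lower. On that scale the share of this list that was called did not exceed that of all genes. The chemokine genes Cxcl2 (5.49 ± 0.43) and Cxcl1 (4.72 ± 0.35) and Egr3 (4.78 ± 0.31) rose most and Il6 fell by 2.41 ± 0.30. In monocytes against macrophages 1 was higher and 4 were lower, in type 2 dendritic cells against monocytes 1 and 9, and in type 1 against type 2 cells 1 and 2. The shares called were 35.7%, 71.4% and 21.4%, against 35.1%, 42.6% and 30.6% of all genes. Mature against type 2 cells had 6 higher and 2 lower, 57.1% against 53.7% of all genes, with Il12b (4.99 ± 0.32, adjusted p = 4.3e-14) and Il6 (3.82 ± 0.25, adjusted p = 4.9e-14) among the rises and Egr2 (-1.18 ± 0.39, adjusted p = 0.011) among the falls.

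The genotypes were compared within 6 gates to ask whether loss of Csf1r in the Lyve1 lineage went with other receptor levels, with 2 tumors against 2. None of the 47 tests of a receptor that passed the filter reached an adjusted p under 0.05 by edgeR, and 6 had an unadjusted p under 0.05. DESeq2 also called none, with 4 at an unadjusted p under 0.05, and so did the fit paired by run as a replicate block, with 10. Few genes of any kind were called. These were 0% of 9144 genes in neutrophils, 0.00971% of 10296 in monocytes, 0% of 9501 in macrophages, 0% of 9524 in type 2 dendritic cells, 0.0357% of 8404 in type 1 dendritic cells and 0% of 9379 in mature dendritic cells. At an unadjusted p under 0.05, 161, 134, 368, 86, 176 and 157 genes were found in the same order. By DESeq2 the numbers of genes called were 0, 1, 2, 0, 4 and 6, and in the paired fit they were 25, 25, 7, 0, 14 and 9. Of the 96 tests of signalling genes, 77 of other lectin genes and 69 of induced genes, edgeR and DESeq2 each called 0, with 0, 6 and 2 at an unadjusted p under 0.05 by edgeR and 0, 4 and 2 by DESeq2.

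In macrophages, Clec4n was higher in Lyve1CreCsf1rfl/fl in both runs, as given above (0.64 ± 0.24 on the log2 scale, adjusted p = 0.9997 by edgeR). Clec12a was lower in both runs, with 0.943 and 1.08 UMIs per 10000 against 1.39 and 1.60 in Csf1rfl/fl (-0.55 ± 0.22, adjusted p = 0.9997 by edgeR). Neither passed after adjustment. The paired fit gave adjusted p of 0.240 and 0.529. The macrophage gate held 942 and 471 cells in Csf1rfl/fl and 250 and 147 in Lyve1CreCsf1rfl/fl. These were 10.8% and 6.05% of kept cells against 3.49% and 3.08%. Whether the make-up of the gate differed between genotypes was not tested.

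Mgl2 and Cd209a in macrophages rested on few cells. Mgl2 had 0.0976 and 0.208 UMIs per 10000 in Csf1rfl/fl and 0.721 and 0.229 in Lyve1CreCsf1rfl/fl (1.77 ± 0.50, adjusted p = 0.9997 by edgeR). In the tumor with 0.721, 3 of 250 macrophages carried 61 of the 88 UMIs, and without that tumor the fold was 0.59, or 1.04 without doublets. Cd209a had 10 and 11 UMIs against 8 and 17 (2.60 ± 0.62, adjusted p = 0.919 by edgeR), and 16 of the 17 were in 1 cell. Its fold was 1.80 without that tumor and 1.97 without the Csf1rfl/fl tumor of run 1. The summed level of the 10 type 2 dendritic cell markers in macrophages was 20.3 and 25.8 in Csf1rfl/fl and 43.3 and 33.8 in Lyve1CreCsf1rfl/fl, with no marker at 0, and its part in these values was not tested. The remaining values with an unadjusted p under 0.05 were Cd209a in neutrophils, with 1 and 9 UMIs against 25 and 6 (2.06 ± 0.71, adjusted p = 0.9998 by edgeR, and 1.09 and 4.39 without the Csf1rfl/fl tumor of run 1 or 2), and Clec12a in mature dendritic cells (-0.77 ± 0.33, adjusted p = 0.9999 by edgeR). For Cd209a in neutrophils the edgeR fit paired by run gave an adjusted p of 0.0685. In the tumor with 25 UMIs, 3 cells carried 19 of them.

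No receptor passed in the gates where Clec4d, Clec4e, Clec9a, Cd209a and Mgl2 were highest, and plasmacytoid dendritic cells, where Clec10a and Clec12a were highest, were not compared between genotypes. Clec4d and Clec4e in neutrophils were at 0.33 ± 0.40 and 0.06 ± 0.42 on the log2 scale for Lyve1CreCsf1rfl/fl against Csf1rfl/fl. Clec9a in type 1 dendritic cells was at 0.27 ± 0.26, and Cd209a, Mgl2 and Clec10a in type 2 dendritic cells were at 0.55 ± 0.45, -0.29 ± 0.37 and -0.20 ± 0.38. Each of these but Clec9a and Cd209a had opposite signs in the 2 runs. Over the 47 tests, 12 were higher in both runs and 10 lower in both. In plasmacytoid dendritic cells, outside these tests, Clec12a had 1.22 and 1.26 UMIs per 10000 in Csf1rfl/fl and 1.64 and 1.68 in Lyve1CreCsf1rfl/fl. Clec10a was also higher there in Lyve1CreCsf1rfl/fl in both runs, and neither difference was tested. In macrophages Clec12a was lower in Lyve1CreCsf1rfl/fl, as given above. The effect of genotype was not shown to differ between gates for any receptor, with an adjusted p of 0.708 for Cd209a as the lowest, and no gene of 10721 passed this test, although Cd209a, Mgl2 and Clec12a had unadjusted p under 0.05 (0.000161, 0.00344 and 0.0171, edgeR).

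**Figure D4:**
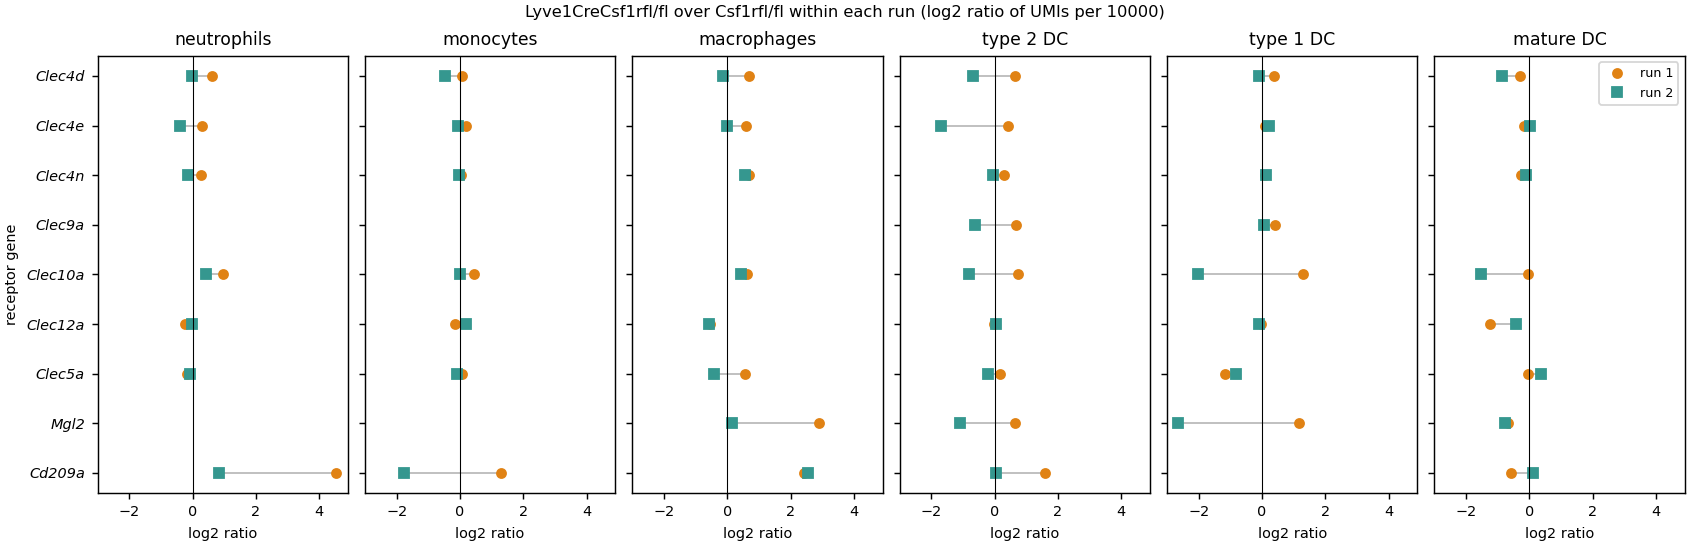
Log2 ratio of the level in Lyve1CreCsf1rfl/fl over Csf1rfl/fl within run 1 (circles) and run 2 (squares), for each receptor that passed the filter in 6 gates, with grey lines joining the runs. In macrophages both runs lie at 0.56 or more for Clec4n and below 0 for Clec12a, while most receptors in type 2 dendritic cells lie on opposite sides of 0.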

How the data were processed

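Gene expression and hashtag antibodies were read from 4 tumors in 2 Chromium runs (3′ libraries). The authors mapped reads to mm10 with Cell Ranger 6.0.1 and deposited counts, that is UMIs per gene and cell and hashtag counts per cell, without normalization. A second table deposited by the authors holds scores, which are corrected values from SCTransform in Seurat, and it was used only for the names of the cells they kept as singlets with few mitochondrial reads. Cells went to the tumor with the higher hashtag after centered log ratio normalization within the run. Receptors, lists and comparisons were chosen with earlier results of these data known. Clec7a was not analysed here.

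A cell was gated by its highest mean z score over the marker lists, with at least 3 markers detected and a lead of 0.2 over the next list. UMIs were summed per gate and tumor. Fits used edgeR 4.0.16 (filterByExpr, TMM, quasi-likelihood test, Benjamini-Hochberg adjustment over all genes, threshold 0.05) in R 4.3.3, with the tumor as a block between gates and no block between genotypes. SEs came from the log2 fold change and the test statistic. The replicate number marks the run, so tumors of 1 run share a capture, and their deviations from the genotype means correlated across genes with r from 0.146 to 0.338 in the 6 gates. Lists of genes are counted in each direction. Of each list, the 3 genes that rose most and the 3 that fell most among those past the threshold could be named. Genes most like a receptor had the highest Pearson r of log2 CPM among genes at 10 CPM or more in 1 sum. Thinned shares are the exact chance that 1500 UMIs drawn from a cell hold the gene. Scrublet (scanpy 1.11.5, expected doublet rate 0.2) called doublets, which were kept in the main values. Alternatives were DESeq2 1.42.0, its size factors in edgeR, no filter, the block added or removed, each tumor left out, hashtags at 3 times the other, no doublets, a lead of 0.5 in the gate and, chosen later, total UMIs alone. The fits were tested on simulated counts. Tumors had 27686362 to 56715743 UMIs in kept cells. The p-values between genotypes measure the spread between tumors only. Those between gates measure only the spread that remains after the tumor block, pooled over the myeloid gates.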

Additional observations from a re-analysis of the deposited data

Results flagged for a closer look

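With the 4 tumors taken as 1 group, the levels of the 9 receptors in the 7 myeloid gates were searched for a tumor far from the other 3. Of 63 groups, 5 had one, where chance alone gives about 3.2. Clec4d in neutrophils was 10.4 UMIs per 10000 in Csf1rfl/fl of run 1 against 15.7 to 16.8 in the others. Clec4d in monocytes was 1.26 in Lyve1CreCsf1rfl/fl of run 2 against 1.76 to 1.84, and in macrophages it was 3.72 in Lyve1CreCsf1rfl/fl of run 1 against 2.10 to 2.32. Clec9a in type 1 dendritic cells was 0.617 in Csf1rfl/fl of run 1 against 0.812 to 0.847. Cd209a in type 1 dendritic cells was 0.171 in Csf1rfl/fl of run 2 against 0 to 0.0249. Each of the 4 tumors stood apart at least once.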

How the results depend on the processing

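The highest gate of each receptor by share of total UMIs stayed the same with distinct hashtags, without doublets and with the stricter gate. These settings changed the cells and not the scale. They could not show a dependence on the scale, such as that given above for Clec4n in macrophages and neutrophils. Of 72 alternative values of the level in the highest gate, 68 moved by less than 1 SD. The others were all without doublets, where Clec4e and Clec5a in neutrophils were 32.5 and 0.714 and Clec10a and Clec12a in plasmacytoid dendritic cells 4.29 and 1.71. A mean that leaves out 1 tumor cannot move by 1 SD of all the tumors, so those values among the 72 were no test. Of 360 alternative folds of receptors called between gates, none changed sign and 12 missed the threshold, while 58 of 60 counts of called receptors stayed within 1.5 times. The exceptions were 7 in monocytes against macrophages without doublets and with the stricter gate, for which the shares of all genes called are not given here. With no replicate block between gates, 5, 3, 8, 6 and 6 receptors were called in the 5 comparisons in the order given, and Clec12a and Clec4e lost the calls named above. The shares of all genes called were then 57.3%, 22.4%, 31.5%, 21.2% and 44.6%, in place of 63.9%, 35.1%, 42.6%, 30.6% and 53.7%.

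Counts of genes between genotypes depended on the setting. In neutrophils, macrophages, type 2, type 1 and mature dendritic cells, 12, 56, 13, 28 and 32 genes were called without the filter. With the run as replicate block 25 were called in neutrophils, 25 in monocytes, 7 in macrophages, 14 in type 1 and 9 in mature dendritic cells. DESeq2 called 2 in macrophages and 6 in mature dendritic cells. Distinct hashtags gave 9 in type 1 dendritic cells, where leaving out doublets gave 0, as it and the stricter gate did in monocytes (0 each). Without 1 tumor, 7 to 42 were called in neutrophils, 12 to 40 in monocytes, 3 to 25 in macrophages, 2 to 28 in type 2, 18 to 36 in type 1 and 5 to 47 in mature dendritic cells, with the lone tumor assumed to vary like the other genotype. The cause was not tested.

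Receptors were called between genotypes only without the filter (Cd209a and Mgl2 in macrophages, Cd209a in type 1 dendritic cells) and without 1 tumor. Without Csf1rfl/fl of run 1 this was Cd209a in type 1 dendritic cells, and without Csf1rfl/fl of run 2 Cd209a in neutrophils and Mgl2 in macrophages. Without Lyve1CreCsf1rfl/fl of run 1 it was Clec4e in type 2 dendritic cells, and without that of run 2 Mgl2 in macrophages.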
